A study of Mus musculus with 8 samples.

Results

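Mouse FGF-ESC lines were compared with EpiSC, a pair of pluripotent cell types kept in the same kind of culture. FGF-ESC were grown in knockout DMEM with 20% serum replacement and FGF2 on mouse embryonic fibroblast feeders, and EpiSC carried the same medium label and were also on feeders. Both were wild-type C57BL/6J, and the labels trace both, EpiSC included, to day 3.5 embryos before implantation. Transcripts were read on Affymetrix Mouse Gene 2.1 arrays, 2 per group. The comparison therefore rests on 4 of the 8 arrays of the study, chosen by their titles. The other arrays, 2 of ESC in inhibitors of kinases plus LIF with 15% serum and no feeders and 2 of the inner cell mass (ICM) of day 3.5 embryos, are wild-type C57BL/6J too. They entered the estimate of the spread and are given as levels beside a result. All values are log2 intensities.

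Pluripotency has a naive form, that of the blastocyst's epiblast and of ESC, and a primed form, that of the epiblast after implantation and of EpiSC. In the mouse the naive form is known to lean on LIF, STAT3 and a circuit of factors such as Klf4 and Tfcp2l1. The primed form is known to depend on FGF and Nodal or activin, and its cells stand close to gastrulation. Feeder cells are fibroblasts, and a lysate of a feeder culture holds their RNA as well.

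The miR-302 cluster carried some of the clearest differences between FGF-ESC and EpiSC, so its products are shown first. The 5 precursor loci of this cluster, Mir302a to Mir302d and Mir367, which is known for primed cells, lie within 580 bases on the plus strand, chr3:127545228-127545807 in GRCm38.p6, inside the gene Larp7. The array reads the locus, not the mature miRNA. Mature sequences from RefSeq (GRCm38.p6) are printed 5′ to 3′ with the seed, bases 2 to 8, in capitals. No mature sequence is shown for the 3p arm of miR-302a. The last line, miR-294-3p at chr7:3220691-3220712 on the plus strand, is from the miR-290 to miR-295 cluster, which is typical of naive cells, and has no level here.
miR-302b-3p: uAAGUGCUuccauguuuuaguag
miR-302d-3p: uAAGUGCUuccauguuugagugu
miR-302c-3p: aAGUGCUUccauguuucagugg
miR-367-3p: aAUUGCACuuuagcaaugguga
miR-294-3p: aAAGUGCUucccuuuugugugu
The seed AAGUGCU was shared by miR-302b-3p, miR-302d-3p and miR-294-3p. In miR-302c-3p as annotated the same letters begin at base 1, so that its seed reads AGUGCUU. The seed of miR-367-3p was unlike the others.

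All 5 loci of the cluster were lower in FGF-ESC. Mir302a was at 2.39 and 2.53 in FGF-ESC, against 5.69 and 5.73 in EpiSC, a log2 fold change, FGF-ESC minus EpiSC, of -3.25 ± 0.19 (SE; n = 2 arrays in each; limma adjusted p = 4.62e-05). Mir367 was at 2.42 and 2.75 in FGF-ESC, against 5.58 and 5.72 in EpiSC (-3.07 ± 0.15, adjusted p = 2.17e-05). Mir302c was at 2.99 and 3.86 in FGF-ESC, against 5.98 and 6.12 in EpiSC (-2.63 ± 0.37, adjusted p = 0.00215). In each case both FGF-ESC arrays lay below both EpiSC arrays and below 4.24, the median of all values, which is taken here as the level of background. The loci Mir302b and Mir302d were added after their values were seen. Mir302b was at 2.95 and 3.52 in FGF-ESC, against 4.87 and 4.61 in EpiSC (-1.51 ± 0.24). Mir302d was at 3.31 and 3.51 in FGF-ESC, against 4.43 and 4.94 in EpiSC (-1.28 ± 0.17). The cluster was near background in ESC too, with Mir302a at 2.71 and 2.65 and Mir367 at 2.34 and 2.47. A gene was tested only if above 4.24 on at least 2 arrays. Mir302a, Mir302b, Mir302d and Mir367 were so only on the EpiSC arrays, and could therefore only be called lower. The transcript of the gene around them, the RNA-binding protein gene Larp7, was at 8.15 and 8.48 in FGF-ESC, against 8.7 and 8.75 in EpiSC, a difference of -0.41 ± 0.14 that did not pass (adjusted p = 0.0793).

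A second set of miRNA loci, singled out after the values were seen, lies inside Sfmbt2, an imprinted Polycomb gene. Sfmbt2 was at 5.41 and 5.06 in FGF-ESC, against 7.48 and 7.46 in EpiSC (-2.24 ± 0.15, adjusted p = 7.26e-05). It was high in ICM as well, at 7.18 and 7.24, and low in ESC, at 5.19 and 5.41. Of 17 tested miRNA loci inside it, 6 fell in FGF-ESC and 0 rose, and all 17 had a value below 0. Mir669k was at 4.07 and 4.55 in FGF-ESC, against 6.82 and 6.65 in EpiSC (-2.42 ± 0.21). Mir669i was at 4.69 and 4.77 in FGF-ESC, against 6.92 and 6.38 in EpiSC (-1.92 ± 0.22). Mir669j was at 4.83 and 4.68 in FGF-ESC, against 6.26 and 6.1 in EpiSC (-1.43 ± 0.14), and the other falls were Mir669g (-1.39), Mir466b-3 (-1.44) and Mir669m-2 (-1.06). Mir669m-2 was above 4.24 only on the EpiSC arrays and so could only be called lower. The other 11 loci lay between -0.81 and -0.21. These loci are near-identical copies, so each probe set may read several of them. Over all 164 miRNA loci tested, 16 were lower and 1 was higher, with a median of -0.16, and 5 of the 16 stood outside both sets. Over all tested genes 2.02% were lower and 5.26% higher. Mir669m-2 was not called without FGF-ESC replicate 1 or EpiSC replicate 2, nor Mir466b-3 without EpiSC replicate 2.

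**Figure D1:**
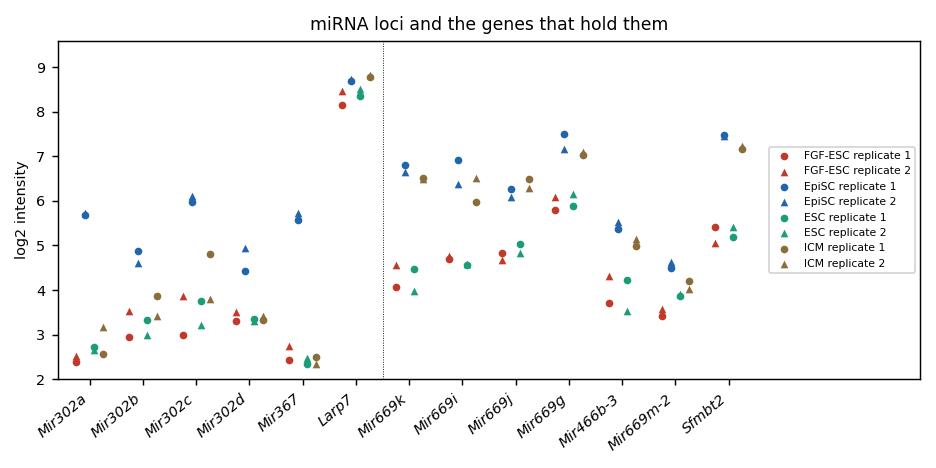
Log2 intensity (vertical axis) of each array for the miR-302 loci with Larp7 (left of the dotted line) and for the 6 lower loci inside Sfmbt2 with Sfmbt2 itself (right); colours are groups and symbols replicates. The 5 loci of the miR-302 cluster stand above the other groups on both EpiSC arrays, while Larp7 is at 8.15 to 8.84 on every array, and the loci in Sfmbt2 are higher in EpiSC and ICM than in FGF-ESC and ESC.

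Across the arrays, 22180 genes were named by a probe set with a single gene symbol, and the 13597 that exceeded 4.24 on at least 2 arrays were tested. A gene counted as higher or lower when its groups differed by 1 or more on the log2 scale and its adjusted p was under 0.05. The arrays of a group correlated over the tested genes at r = 0.968 in FGF-ESC and 0.991 in EpiSC, a description across genes that are not independent replicates. FGF-ESC replicates 1 and 2 differed by 1 or more for 395 genes, 364 of them higher on replicate 1, against 20 genes between the EpiSC arrays. The standard error of each fold change pools the spread of all 4 groups, and the residual SD was 0.279 in FGF-ESC and 0.151 in EpiSC. Whether the arrays of a group are separate cultures or repeats is not given by the labels. The p-values therefore cover the spread between these samples and no more, and it may be technical.

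In FGF-ESC 715 genes were higher than in EpiSC, 5.26% of those tested, and 275 were lower, 2.02%. The counts of the gene lists below are to be read against these shares. The median over all tested genes was -0.038. In each of these 990 genes both FGF-ESC arrays lay on the same side of both EpiSC arrays. The rule for a call on these same arrays favours such a separation, so it adds no support. Large differences were mostly rises: 255 genes were higher by 2 or more on the log2 scale and 34 were lower by as much. The group of lower level was under 4.24 for 209 of the 715 rises and 70 of the 275 falls, so that these folds depend on background. A gene above 4.24 on the FGF-ESC arrays alone, or on the EpiSC arrays alone, could be called in 1 direction only. The number of such genes among the calls was not counted. Of the 715 rises, 536 were above 4.24 on both ESC arrays, which held no feeders. Of all 22180 named genes, 12280 were above 4.24 on ESC replicate 1 and 12424 on ESC replicate 2. The 22180 include 8583 genes that were not tested, so these counts are no base for the 536. Whether the 536 are many or few was therefore not shown. The share of tested genes above it on both was not counted, and the part of feeder RNA in the rises was not tested. FGF-ESC replicate 1 was above replicate 2 for 504 of the 715, and the 2 arrays differed by 1 or more for 206 of them and for 0 of the 275 falls. Without FGF-ESC replicate 2 there were 974 rises and 313 falls, and without FGF-ESC replicate 1 there were 644 and 301.

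**Figure D2:**
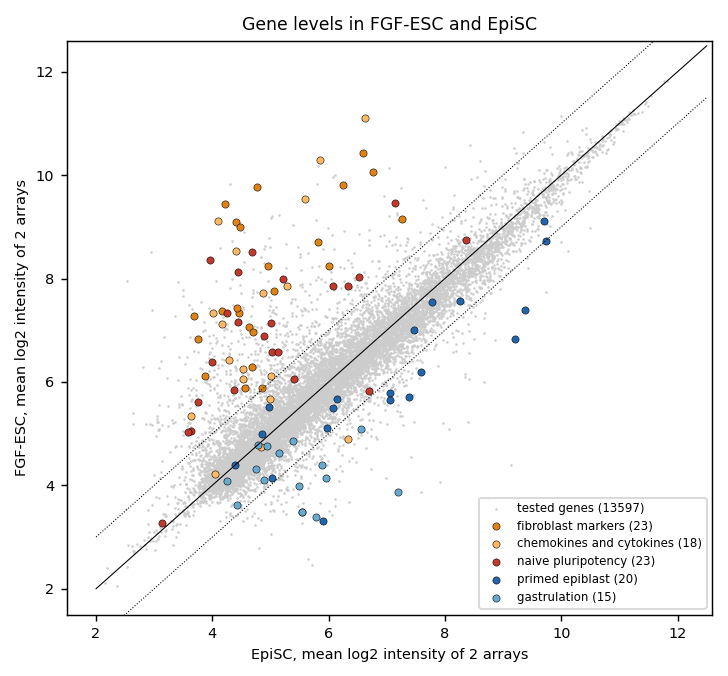
Mean log2 intensity of each tested gene in FGF-ESC (vertical axis) against EpiSC (horizontal axis), 2 arrays each; coloured points are members of 5 gene lists, the solid line is equality and the dotted lines are a log2 difference of 1. Most fibroblast, chemokine and naive genes lie above the band, and most primed and gastrulation genes below the line of equality.

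Fibroblast transcripts were far higher in FGF-ESC although both cultures stood on feeders. Of 23 tested markers of fibroblasts 21 rose and 0 fell, with a median log2 fold change of 3.01. Their mean level was 8.66 and 7.36 on FGF-ESC replicates 1 and 2, against 4.87 and 5.07 in EpiSC, and 4.16 and 4.18 in ESC, which grew without feeders. The median difference between replicate 1 and replicate 2 over these markers was 1.18 in FGF-ESC and -0.13 in EpiSC. In bulk RNA more cells of a type and more RNA per cell cannot be told apart. The leading member was Lum, a collagen-binding proteoglycan, at 9.88 and 9.02 in FGF-ESC, against 3.92 and 4.53 in EpiSC (5.23 ± 0.28, adjusted p = 3.44e-05). Dcn, decorin, of the same family, was at 10.05 and 9.49 in FGF-ESC, against 4.28 and 5.24 in EpiSC. Postn, a matrix protein of fibroblasts, was at 9.63 and 8.57 in FGF-ESC, against 4.09 and 4.72 in EpiSC. Thy1, a surface protein of fibroblasts, was at 10.16 and 9.45 in FGF-ESC, against 6.13 and 6.38 in EpiSC (3.55 ± 0.22). Col1a2, which encodes collagen type I, was at 10.42 and 9.69 in FGF-ESC, against 6.58 and 6.95 in EpiSC (3.29 ± 0.23), which puts EpiSC above the 3.43 and 3.23 of ESC. Its other probe set gave 3.06. The markers Twist1 (1.03) and Col5a1 (1.32) did not pass, and Fap and Twist2 were too dim to be tested. Both Twist1 and Col5a1 passed without FGF-ESC replicate 2.

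Markers of other cell types that a culture might hold were called more often than the 5.26% higher over all tested genes, on lists of few tested genes. Of 6 tested macrophage markers, 2 rose (33.3%), Laptm5 and Cd68. Laptm5, a lysosomal protein of blood cells, was at 6.82 and 7.17 in FGF-ESC, against 4.33 and 4.07 in EpiSC. Cd68 was at 6.16 and 5.9 in FGF-ESC, against 4.8 and 5.24 in EpiSC. Both were higher in feeder-free ESC, with Laptm5 at 7.97 and 7.82 and Cd68 at 7.09 and 7.02. The defining macrophage genes Ptprc and Csf1r were below 4.24 on every array. Of 8 endothelial markers, 2 rose (25%), Pecam1, an adhesion protein that ESC share, and Eng, an endoglin gene also active in stromal cells. The median of the list was 0.22, and Kdr was below 4.24 on every array. The primitive endoderm list had 4 of 18 higher (22.2%) and 2 lower (11.1%, against 2.02% over all) with a median of -0.01, its Gata4 at -0.17 and Sox17 at -0.51. Its rises, Pdgfra, Dab2, Col4a1 and Col4a2, were all higher on FGF-ESC replicate 1 than on replicate 2, and the count of rises was 2 without FGF-ESC replicate 1 and 2 without EpiSC replicate 1. Of these calls, that of Cd68 ended without FGF-ESC replicate 1 or either EpiSC array, and those of Dab2, Col4a1 and Col4a2 without FGF-ESC replicate 1 or EpiSC replicate 2.

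Genes of the fibroblast's matrix and secretions rose with these markers. Lum, Dcn and Mmp2 are counted both on the matrix lists and among the fibroblast markers. Of 21 matrix proteases and inhibitors 11 rose and 0 fell (median 1.085). Mmp3, the stromelysin, was at 10.21 and 9.44 in FGF-ESC, against 3.73 and 4.87 in EpiSC (5.52 ± 0.36, adjusted p = 6.98e-05). Timp2, an inhibitor of such proteases, was at 9.24 and 8.33 in FGF-ESC, against 4.99 and 4.97 in EpiSC. Of 30 matrix proteoglycans and glycoproteins 12 rose (median 0.82), among them biglycan and tenascin C. Bgn was at 10.48 and 9.53 in FGF-ESC, against 6.05 and 6.18 in EpiSC. Tnc was at 10.09 and 8.26 in FGF-ESC, against 4.67 and 5.36 in EpiSC. Fn1, fibronectin, was at 10.42 and 9.91 in FGF-ESC, against 7.84 and 8.15 in EpiSC, but ESC without feeders were at 10.01 and 9.97. Nid1, which links laminin to collagen in basement membranes, was likewise at 9.14 and 8.19 in FGF-ESC, against 5.15 and 5.37 in EpiSC and at 7.92 and 7.79 in ESC. The contractile list of fibroblasts differed from this pattern in its count. In it 1 of 22 rose, Cald1, with a median of 0.12. That is 4.5%, close to the 5.26% higher over all tested genes. The list still had 18 of 22 members higher on FGF-ESC replicate 1 than on replicate 2, with a median difference of 0.75. Without FGF-ESC replicate 2 its count was 6. The part of feeder RNA in these differences was not tested.

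Chemokines showed the same split of arrays. Of 18 chemokines and cytokines 14 rose and 1 fell, with a median of 2.35, and the median difference between FGF-ESC replicates 1 and 2 was 0.63. Ccl2, which draws monocytes, was at 11.4 and 10.82 in FGF-ESC, against 6.5 and 6.75 in EpiSC (4.48 ± 0.26, adjusted p = 4.83e-05). Ccl8, of the same family, was at 9.46 and 8.76 in FGF-ESC, against 3.99 and 4.21 in EpiSC. Ccl8 was above 4.24 only on the FGF-ESC arrays and so could only be called higher. Ccl11, which draws eosinophils, was at 9.66 and 9.43 in FGF-ESC, against 5.61 and 5.56 in EpiSC. ESC, without feeders, were at 3.29 and 3.22 for Ccl8 and at 4.54 and 3.97 for Ccl2, so that EpiSC stood above ESC for Ccl2. The 1 fall was Cx3cl1, a membrane-bound chemokine named after its values were seen, at 5.09 and 4.7 in FGF-ESC, against 6.29 and 6.37 in EpiSC (-1.44 ± 0.17). The fibroblast markers moved beside this list, and their part in it was not tested.

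Calls of interferon genes varied with the arrays used. With all arrays 23.1% of them rose, against 5.26% of all tested genes. Of 26 genes 6 rose and 0 fell (median 0.44), and the counts were 3 without FGF-ESC replicate 1, 14 without FGF-ESC replicate 2 and 3 with either EpiSC array left out. Irf7, the transcription factor that amplifies the response, was at 8.76 and 7.5 in FGF-ESC, against 6.02 and 6.05 in EpiSC. Ifit1, which binds viral RNA, was at 9.34 and 7.28 in FGF-ESC, against 6.41 and 6.36 in EpiSC. On both, FGF-ESC replicate 1 stood more than 1 above replicate 2. Ifi204, an interferon-inducible gene with near-identical copies and so uncertain, was among the 15 largest rises, at 9.06 and 7.96 in FGF-ESC, against 2.83 and 3.05 in EpiSC (5.56 ± 0.3, adjusted p = 3.44e-05). Its EpiSC values were below background, so its fold depends on it, and it was at 5.01 without FGF-ESC replicate 1. Ifi204 was above 4.24 only on the FGF-ESC arrays and so could only be called higher. Of 16 genes of MHC class I presentation 2 rose, B2m, the light chain of the complex, and Psmb9, an immunoproteasome subunit. B2m was at 10.94 and 10.73 in FGF-ESC, against 9.29 and 9.38 in EpiSC. Psmb9 was at 8.32 and 7.77 in FGF-ESC, against 6.81 and 6.8 in EpiSC. Without FGF-ESC replicate 1 neither Ifit1 (0.89) nor Psmb9 (0.97) was called.

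**Figure D3:**
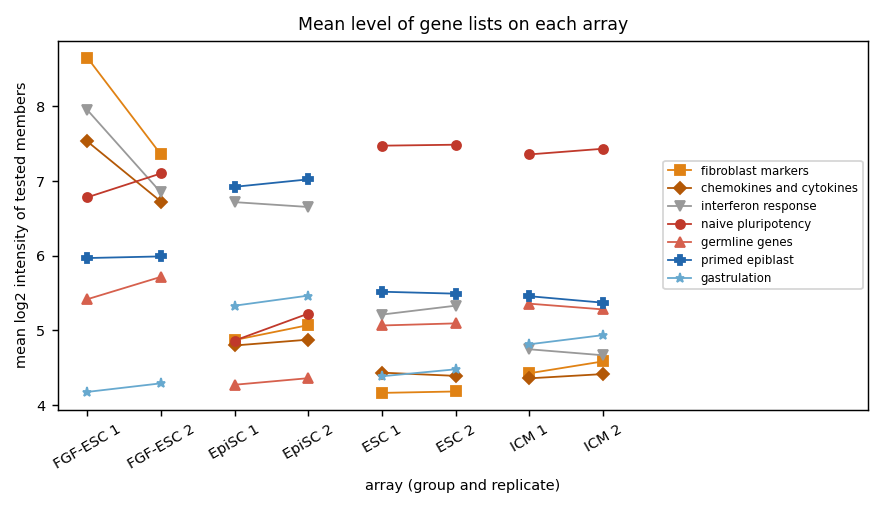
Mean log2 intensity of the tested members of 7 gene lists (vertical axis) on each of the 8 arrays (horizontal axis), with lines joining the replicates of a group. The fibroblast list is at 8.66 and 7.36 on the FGF-ESC arrays and at 4.87 and 5.07 in EpiSC, while naive genes are higher on FGF-ESC replicate 2 than on replicate 1.

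Most naive pluripotency genes rose, and their FGF-ESC replicates ran in the opposite order to the fibroblast markers. That order was not particular to them. The median difference between FGF-ESC replicates 1 and 2 was -0.15 for core pluripotency, -0.105 for neural and -0.315 for epithelial junction genes. In the naive list itself it was -0.33 in FGF-ESC, and the EpiSC arrays differed by -0.35. Of 23 tested members 19 rose and 0 fell, and the mean level was 6.78 and 7.10 on FGF-ESC replicates 1 and 2, against 4.86 and 5.23 in EpiSC and 7.47 and 7.49 in ESC. The count was 19 with either FGF-ESC array left out. Klf4 was at 8.44 and 8.59 in FGF-ESC, against 4.55 and 4.82 in EpiSC (3.83 ± 0.13, adjusted p = 1.45e-05), level with the 8.62 and 8.56 of ESC. Tbx3, a T-box factor, was at 7.32 and 7.33 in FGF-ESC, against 4.09 and 4.39 in EpiSC, below the 8.5 and 8.39 of ESC. Nr0b1, an orphan nuclear receptor, was at 8.09 and 8.61 in FGF-ESC, against 3.51 and 4.4 in EpiSC (4.4 ± 0.32), and in ICM it was at 4.23 and 3.63. The receptor Nr5a2 was at 6.78 and 6.99 in FGF-ESC, against 4.76 and 5.0 in EpiSC. Tfcp2l1 was at 7.01 and 7.26 in FGF-ESC, against 4.82 and 5.19 in EpiSC. Pecam1 was at 5.39 and 5.82 in FGF-ESC, against 3.58 and 3.92 in EpiSC. Both were lower than in ESC, with Tfcp2l1 at 8.99 and 8.78 and Pecam1 at 7.18 and 7.13. Esrrb (0.66 ± 0.16), Mkrn1 (0.37) and Gbx2 (-0.87) did not pass, and Gbx2, a target of LIF in the mouse, lay below 0.

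Of 13 core factors that both states share, 3 rose (23.1%) and 1 fell (7.69%), against 5.26% and 2.02% of all tested genes, with a median of -0.18. The rises were Sox2 and Dppa4 and Dppa2, a pair of chromatin factors of early embryos. Dppa4 was at 7.67 and 8.07 in FGF-ESC, against 4.37 and 4.58 in EpiSC (3.39 ± 0.16, adjusted p = 2.05e-05). Dppa2 was at 7.29 and 7.57 in FGF-ESC, against 5.51 and 5.65 in EpiSC (1.85 ± 0.15). Sox2 was at 8.96 and 9.59 in FGF-ESC, against 7.99 and 8.18 in EpiSC (1.19 ± 0.2). The fall was Lin28a, an RNA-binding protein that blocks let-7 processing, at 6.36 and 6.48 in FGF-ESC, against 7.67 and 7.46 in EpiSC (-1.15 ± 0.12). Its paralogue Lin28b, looked up after this value was seen, was at 4.13 and 4.64 in FGF-ESC, against 5.57 and 5.5 in EpiSC (-1.15 ± 0.19). Tdgf1 (-0.3), L1td1 (-0.71) and Trim28 (-0.18), the brightest of the others, did not pass. Sox2 was at 0.88 without FGF-ESC replicate 2 and Lin28b at -0.90 without FGF-ESC replicate 1, neither then called.

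Genes of the LIF pathway, which signals through Lifr, Il6st and JAK kinases to STAT3, rose in 11 of 22 cases and fell in 0 (median 0.94). Among these rises Klf4, Klf5, Tfcp2l1 and Lifr stand on the naive list too, so the counts of these lists are not separate results. Neither culture label names LIF. Of the receptor chains, Lifr was at 6.58 and 6.58 in FGF-ESC, against 5.12 and 5.16 in EpiSC (1.45 ± 0.14). Il6st, gp130, was at 8.11 and 7.71 in FGF-ESC, against 6.51 and 6.74 in EpiSC (1.28 ± 0.18). Osmr, the oncostatin M receptor, was at 7.42 and 5.54 in FGF-ESC, against 3.41 and 3.45 in EpiSC, but near background in ESC at 3.23 and 3.28 and 1.88 higher on FGF-ESC replicate 1 than on replicate 2. Among targets, Socs3, the feedback inhibitor, was at 7.16 and 7.31 in FGF-ESC, against 5.94 and 6.19 in EpiSC (1.17 ± 0.14), while its other probe set gave 0.26. Bcl3, an IκB-family cofactor, was at 6.91 and 6.36 in FGF-ESC, against 4.47 and 4.14 in EpiSC, close to ESC at 7.0 and 6.94. Mcl1, Socs2 and Junb, at 0.42, 0.036 and 0.36, did not pass. Fibroblast markers were higher beside this list too.

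Primed and gastrulation genes changed in the other direction. Of 20 primed genes 0 rose and 7 fell (median -0.88), and of 15 gastrulation genes 0 rose and 7 fell (median -0.80). Fgf8 was counted in both. Fgf5, the ligand that marks the epiblast after implantation, was at 3.43 and 3.18 in FGF-ESC, against 5.72 and 6.07 in EpiSC (-2.59 ± 0.17, adjusted p = 6.51e-05). Enpp3, an ectonucleotidase, was at 7.48 and 7.29 in FGF-ESC, against 9.42 and 9.32 in EpiSC, so that FGF-ESC kept a level above the 6.29 and 6.31 of ESC. Pou3f1, the POU factor Oct6, was at 5.8 and 5.63 in FGF-ESC, against 7.43 and 7.35 in EpiSC, again above ESC at 4.14 and 4.66. Lef1, the nuclear partner of β-catenin, was at 5.51 and 6.05 in FGF-ESC, against 7.02 and 7.09 in EpiSC with ESC at 4.39 and 4.32. Dusp6, an ERK phosphatase (-0.58), Dnmt3b, a DNA methyltransferase (-0.998), and Zic5 (-0.69) did not pass.

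In the gastrulation list Lhx1, a homeobox gene of the organiser, was at 3.15 and 3.62 in FGF-ESC, against 5.61 and 5.96 in EpiSC (-2.4 ± 0.18). Mixl1, of the primitive streak, was at 4.08 and 4.22 in FGF-ESC, against 6.07 and 5.84 in EpiSC (-1.8 ± 0.21). Foxa2, of axial mesoderm and endoderm, was at 3.87 and 4.11 in FGF-ESC, against 5.27 and 5.71 in EpiSC. Eomes, a T-box factor, was at 4.3 and 4.5 in FGF-ESC, against 6.11 and 5.68 in EpiSC, with ICM at 5.57 and 5.75. Cer1, a secreted Nodal antagonist, was at 3.7 and 4.03 in FGF-ESC, against 6.32 and 8.08 in EpiSC, and the EpiSC arrays themselves stood far apart. Of 13 neural genes 4 fell and 0 rose, with a median of -0.013. Fabp7, a lipid-binding protein of neural progenitors, was among the 15 largest falls, at 3.72 and 3.77 in FGF-ESC, against 9.36 and 8.15 in EpiSC (-5.01 ± 0.32, adjusted p = 6.51e-05). Its FGF-ESC values were below background, and it was at -4.405 without EpiSC replicate 1. Fabp7 and Cer1 were above 4.24 only on the EpiSC arrays and so could only be called lower. How many other members of the neural and gastrulation lists passed the filter this way was not counted. Sox1, a neural plate factor, was at 4.31 and 4.65 in FGF-ESC, against 6.51 and 6.18 in EpiSC (-1.87 ± 0.18).

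The pathways that keep EpiSC were mixed. Nodal genes rose in 9.52% of cases and fell in 19.05%, against 5.26% and 2.02% of all tested genes. In the Nodal list 2 of 21 rose and 4 fell (median -0.30), and without FGF-ESC replicate 2 the count of falls was 2. Its targets Lefty1 and Skil fell, as did the activin antagonist Fst. Lefty1 was at 6.88 and 6.79 in FGF-ESC, against 9.06 and 9.35 in EpiSC. Skil was at 6.06 and 5.78 in FGF-ESC, against 6.82 and 7.07 in EpiSC. Fst was at 5.69 and 5.07 in FGF-ESC, against 6.54 and 6.82 in EpiSC. Gdf3, a ligand related to Vg1, rose to 6.61 and 6.79 in FGF-ESC, against 5.52 and 5.72 in EpiSC. Inhba, an activin subunit, was at 6.36 and 4.7 in FGF-ESC, against 3.54 and 2.93 in EpiSC, 1.66 higher on FGF-ESC replicate 1 than on replicate 2 and near background in ESC, at 2.82 and 2.86. The brightest of the other members, the coreceptor gene Tdgf1 (-0.3), the signal transducer Smad2 (0.079) and the inhibitory Smad7 (-0.53), did not pass. Leaving out FGF-ESC replicate 2 ended the calls of Skil, Fst and Gdf3, and leaving out EpiSC replicate 2 ended that of Inhba.

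Of 17 FGF ligands and receptors 2 rose (11.76%) and 3 fell (17.65%), against 5.26% and 2.02% of all tested genes (median -0.035). Fgf4, the ligand of naive cells, was at 7.57 and 8.14 in FGF-ESC, against 5.79 and 6.35 in EpiSC (1.78 ± 0.22), close to ESC at 8.06 and 8.04. Beside Fgf5, the ligands Fgf8 and Fgf15 of the gastrulating embryo and the neural plate were lower, with Fgf8 at 3.78 and 3.18 in FGF-ESC, against 5.68 and 5.41 in EpiSC. Fgf15 was at 3.94 and 3.88 in FGF-ESC, against 5.03 and 5.25 in EpiSC. The other probe set of Fgf15 was at background. Fgf7, a ligand made by mesenchyme, was at 7.6 and 6.71 in FGF-ESC, against 3.83 and 3.88 in EpiSC, with ESC at 4.01 and 3.89. No tested receptor was past the threshold, and Fgfr1 was at -0.67. Without FGF-ESC replicate 1, Fgfr1 was lower by the same threshold, at -1.03.

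The ERK list of feedback regulators and targets had 6 of 27 higher (22.2%) and 2 lower (7.41%), with a median of 0.031. Its rises were immediate early and stress genes. Ier3 was at 8.65 and 7.79 in FGF-ESC, against 5.54 and 5.89 in EpiSC (2.51 ± 0.26). Fos, an AP-1 subunit, was at 7.43 and 6.89 in FGF-ESC, against 5.46 and 6.1 in EpiSC. Dusp1, a phosphatase of MAP kinases, was at 8.84 and 8.58 in FGF-ESC, against 7.01 and 7.68 in EpiSC. The falls were the FGF antagonist Il17rd and the ETS factor Etv1. Il17rd was at 5.74 and 6.03 in FGF-ESC, against 7.32 and 6.84 in EpiSC. Etv1 was at 5.75 and 4.78 in FGF-ESC, against 6.73 and 6.8 in EpiSC, with -0.74 on its other probe set. Etv5 (0.13) and Dusp6 (-0.58), readouts of ERK in many tissues, did not pass, although the other probe set of Dusp6 gave -1.33. The 6 rises were 9 without FGF-ESC replicate 2, 4 without FGF-ESC replicate 1 and 3 without EpiSC replicate 1, and the 2 falls were 0 without EpiSC replicate 1. The median of the list differed by 0.60 between FGF-ESC replicates 1 and 2. Il17rd was not called without EpiSC replicate 1, nor Etv1 when either EpiSC array was left out.

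WNT genes changed in 5 of 29 cases, 2 higher (6.9%) and 3 lower (10.3%), against 5.26% and 2.02% of all tested genes (median -0.058). The rises were 3 without FGF-ESC replicate 2 and 1 with any other of the 4 arrays left out. Wnt8a, a ligand of the streak, was at 3.7 and 3.62 in FGF-ESC, against 6.21 and 5.49 in EpiSC (-2.2 ± 0.21). Dkk1, a secreted WNT inhibitor, was at 4.27 and 4.27 in FGF-ESC, against 5.31 and 5.23 in EpiSC. Dkk2, its relative, was at 7.13 and 6.25 in FGF-ESC, against 4.27 and 4.28 in EpiSC, with ESC at 4.56 and 4.35. Of 17 BMP pathway genes 3 rose (17.65%, median 0.084), Tbx3, Bmp4 and Grem1. The ligand Bmp4 was at 6.22 and 5.63 in FGF-ESC, against 4.23 and 4.58 in EpiSC. The BMP antagonist Grem1 was at 7.01 and 5.49 in FGF-ESC, against 4.02 and 3.64 in EpiSC. Id3, a direct target, was at 0.41 and did not pass. Dkk1 stood at the fold minimum and was not called without EpiSC replicate 1 (-0.96).

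**Figure D4:**
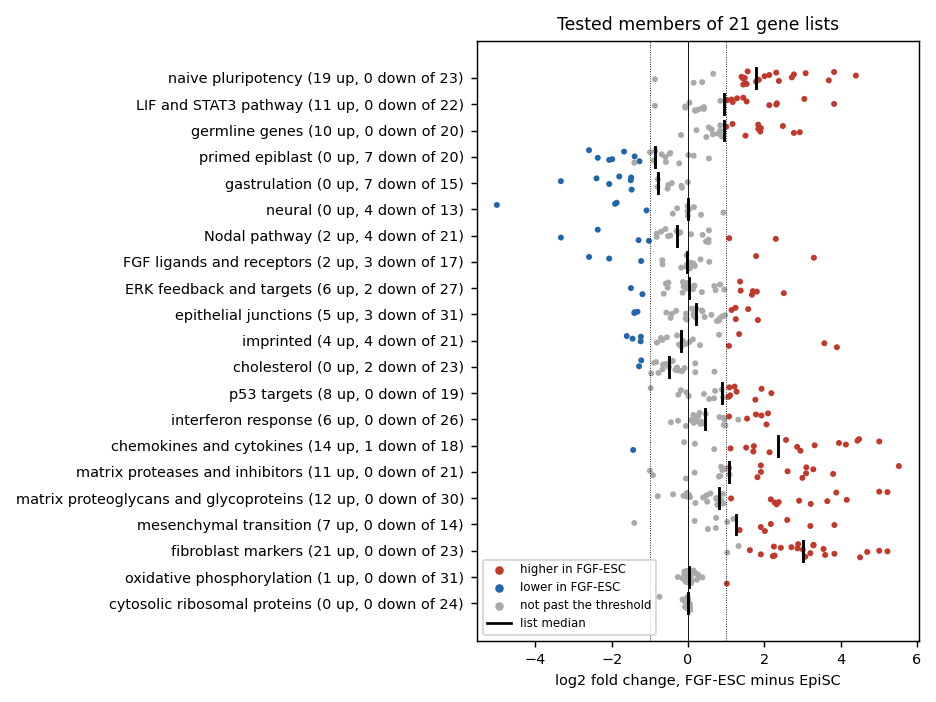
Log2 fold change, FGF-ESC minus EpiSC, of each tested member of 21 gene lists (points); red points rose, blue points fell, grey points did not pass the threshold, and black bars are list medians. The fibroblast and chemokine lists have medians of 3.01 and 2.35, the naive list of 1.78, the primed list of -0.88 and the ribosomal list of -0.0060.

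Germline genes, many of which are silenced by DNA methylation in primed cells and in the body, rose in 10 of 20 cases and fell in 0 (median 0.94). As with the naive genes and lists of other kinds, FGF-ESC replicate 1 lay below replicate 2, with a median difference of -0.40. Sycp1, a protein of the synaptonemal complex, was at 5.36 and 5.76 in FGF-ESC, against 2.99 and 3.17 in EpiSC (2.49 ± 0.19, adjusted p = 0.000124), and ESC were at 3.3 and 3.18. Hormad1, which works on unpaired chromosome axes in meiosis, was at 5.96 and 7.02 in FGF-ESC, against 3.49 and 3.62 in EpiSC (2.93 ± 0.32). Ddx4, the germ cell helicase, was at 5.61 and 6.13 in FGF-ESC, against 4.02 and 4.05 in EpiSC. Dazl, an RNA-binding protein of germ cells, was at 4.72 and 5.13 in FGF-ESC, against 3.78 and 3.75 in EpiSC. The X-linked homeobox genes Rhox5 and Rhox6 rose. Rhox5 was at 7.3 and 7.24 in FGF-ESC, against 5.33 and 5.4 in EpiSC, and was lower in ESC, at 5.13 and 4.96, than in FGF-ESC. Rhox6 was at 7.07 and 7.49 in FGF-ESC, against 5.47 and 5.41 in EpiSC. Tdrd12, of the piRNA pathway, was at 5.99 and 6.57 in FGF-ESC, against 4.37 and 4.41 in EpiSC. Tex19.1 (0.78), Rhox9 (0.62) and Xlr3a (-0.18) did not pass. Dazl was not called without FGF-ESC replicate 2 (0.96).

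Promoters of this group are known for the E-box CACGTG, the letters that the dimer of MGA and MAX binds in a repressor complex. The letters were searched in the 250 bases before each start in RefSeq (GRCm38.p6); the motif reads the same on both strands. They stood in 6.86% of all 27025 genes with a promoter in the table, and in 7 of 16 germline genes matched there. Of the 9 matched genes that rose 3 held it, and of the 7 that did not pass 4 held it. The stretches of the 3 that rose are shown 5′ to 3′ on the gene's strand, with CACGTG in capitals. That of Hormad1 is chr3:95559590-95559655 on the plus strand, that of Sycp1 chr3:102936159-102936224 on the minus strand and that of Ddx4 chr13:112652311-112652369 on the minus strand.
Hormad1: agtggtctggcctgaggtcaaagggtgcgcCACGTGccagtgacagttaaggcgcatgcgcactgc
Sycp1: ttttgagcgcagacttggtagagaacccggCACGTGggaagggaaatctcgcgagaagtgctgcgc
Ddx4: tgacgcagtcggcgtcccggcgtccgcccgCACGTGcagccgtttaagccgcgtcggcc

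Among regulators of DNA methylation 6 of 18 rose and 0 fell, while the median was -0.048. Tet2, a dioxygenase that oxidises methylated cytosine, was at 6.15 and 6.61 in FGF-ESC, against 3.77 and 4.23 in EpiSC (2.38 ± 0.22). Tet1, its relative, was at 7.81 and 8.29 in FGF-ESC, against 7.06 and 6.98 in EpiSC (1.03 ± 0.18). Dppa3, known as Stella, which guards and limits methylation in the early embryo, was at 6.78 and 7.54 in FGF-ESC, against 4.16 and 4.72 in EpiSC (2.72 ± 0.26). Zfp57, which keeps methylation at imprints, was at 7.88 and 8.17 in FGF-ESC, against 6.39 and 6.64 in EpiSC. Dnmt3l, the partner of the methyltransferases, was at 5.91 and 5.71 in FGF-ESC, against 4.49 and 4.45 in EpiSC, with ESC at 7.22 and 7.0. The enzyme Dnmt3b was at 8.87 and 8.6 in FGF-ESC, against 9.82 and 9.64 in EpiSC, a difference of -0.998 just short of the fold minimum (adjusted p = 0.00221). Uhrf1, which recruits the maintenance enzyme, was at -0.12 and did not pass. Tet1 was not called without FGF-ESC replicate 2 or EpiSC replicate 2, and Dnmt3b was called lower without FGF-ESC replicate 1 (-1.14) or EpiSC replicate 2 (-1.09).

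Imprinted genes went both ways, 4 of 21 higher and 4 lower (19.05% each, median -0.18). Nnat, a membrane proteolipid gene, was at 8.33 and 8.5 in FGF-ESC, against 5.05 and 4.63 in EpiSC (3.57 ± 0.27, and 1.71 on its other probe set). Igf2, a growth factor, was at 6.62 and 6.05 in FGF-ESC, against 4.97 and 5.02 in EpiSC. Peg10, a gene of retroviral origin, was at 6.68 and 6.5 in FGF-ESC, against 7.96 and 8.43 in EpiSC (-1.61 ± 0.17). Cdkn1c, a cell cycle inhibitor, was at 4.81 and 4.61 in FGF-ESC, against 6.45 and 5.88 in EpiSC. Grb10, an adaptor of growth factor receptors, was at 7.12 and 6.83 in FGF-ESC, against 8.09 and 8.34 in EpiSC. Mest was at 7.34 and 7.21 in FGF-ESC, against 8.67 and 8.36 in EpiSC. Xist, counted in this list, the RNA that silences an X chromosome in females, was at 8.19 and 7.72 in FGF-ESC, against 3.75 and 4.37 in EpiSC (3.9 ± 0.22, adjusted p = 4.62e-05), with ESC at 4.28 and 4.5. The Y-linked genes Eif2s3y and Uty were looked up after this value was seen. Eif2s3y was at 6.05 and 6.38 in FGF-ESC, against 7.13 and 7.16 in EpiSC (-0.93 ± 0.15, adjusted p = 0.00379, short of the fold minimum), and Uty at 5.11 and 4.72 in FGF-ESC, against 6.19 and 6.3 in EpiSC (-1.33 ± 0.17). Fibroblast markers were higher on the same arrays as Xist, and their part in these values was not tested. Without FGF-ESC replicate 2, Eif2s3y passed too, at -1.09.

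The largest falls outside the lists above included enzymes and surface proteins. Car2, a cytosolic carbonic anhydrase, was at 4.58 and 4.21 in FGF-ESC, against 9.11 and 9.14 in EpiSC (-4.73 ± 0.2, adjusted p = 1.89e-05). Car3, a muscle-type member, was at 4.23 and 4.03 in FGF-ESC, against 7.1 and 6.87 in EpiSC (-2.86 ± 0.14), and its other probe set gave -4.73. Car4, a membrane-bound member, was at 5.4 and 4.78 in FGF-ESC, against 7.77 and 8.39 in EpiSC (-2.99 ± 0.29). Of 10 tested carbonic anhydrase genes these 3 fell, against 2.02% of all tested genes, and the other 7 lay between -0.31 and 0.46. The family is not one of the gene lists. It was counted because these 3 were among the 15 largest falls, so its count adds no support. Car2, Car3 and Car4 were at 3.54 to 4.50 in ESC and ICM. Slc39a8, a zinc and manganese importer, was at 4.06 and 3.67 in FGF-ESC, against 7.66 and 7.5 in EpiSC (-3.72 ± 0.17). Spink1, a trypsin inhibitor, was at 4.28 and 3.83 in FGF-ESC, against 7.51 and 8.31 in EpiSC. Prtg, protogenin, a receptor of the gastrulating embryo, was at 5.21 and 5.24 in FGF-ESC, against 8.36 and 8.44 in EpiSC (-3.17 ± 0.16). Pim2, a survival kinase, was at 6.23 and 5.76 in FGF-ESC, against 8.89 and 8.47 in EpiSC. Cd59a, an inhibitor of complement, was at 5.56 and 4.87 in FGF-ESC, against 7.92 and 8.02 in EpiSC, and was high in ICM too, at 7.39 and 7.55. Fndc3c1 was at 3.69 and 3.67 in FGF-ESC, against 6.08 and 6.62 in EpiSC. Fndc3c1 and Slc39a8 were above 4.24 only on the EpiSC arrays and so could only be called lower.

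**Figure D5:**
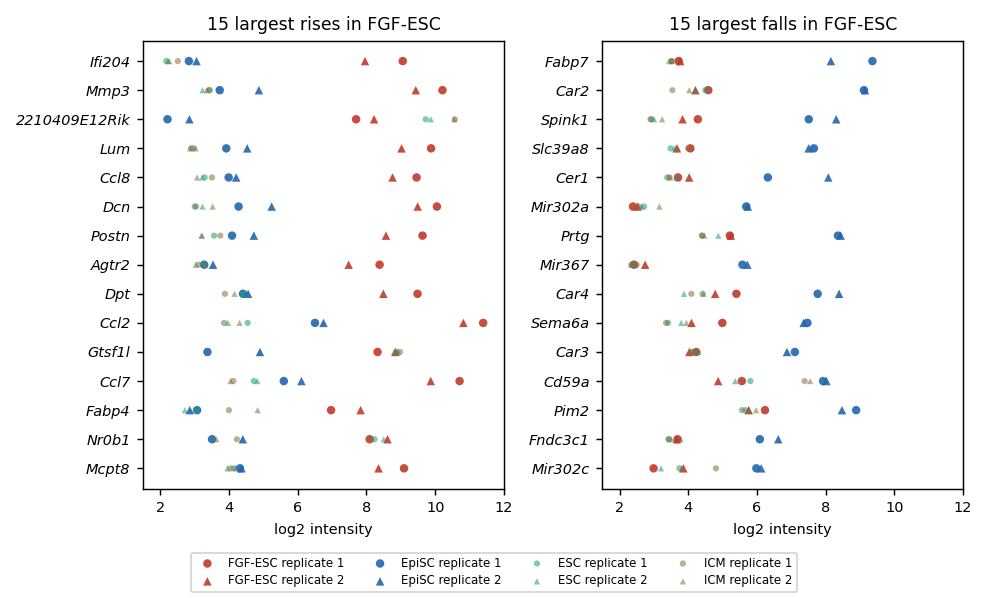
Log2 intensity (horizontal axis) of the 15 largest rises (left) and 15 largest falls (right) in FGF-ESC on each array, with colours for groups and symbols for replicates. Most of the largest rises are below 5 in ESC and ICM, while 2210409E12Rik and Gtsf1l are above 8 in both and Nr0b1 is above 8 in ESC, and the largest falls are mostly as low in ESC and ICM as in FGF-ESC.

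A further set of rises was shared with feeder-free ESC, being above 6 on both ESC arrays and within 0.5 between the FGF-ESC arrays. Beside Klf4, Tbx3, Dppa4, Nnat and Laptm5 it held Nupr1, a stress-induced chromatin protein, at 8.65 and 8.58 in FGF-ESC, against 4.68 and 5.32 in EpiSC (3.62 ± 0.19), with ESC at 7.86 and 7.97. Rex2, a zinc finger gene, was at 6.4 and 6.17 in FGF-ESC, against 2.92 and 2.69 in EpiSC (3.48 ± 0.14). Zfp640, another, was at 5.95 and 6.21 in FGF-ESC, against 3.31 and 3.12 in EpiSC. Rpl10l, a testis copy of a ribosomal protein gene, was at 6.71 and 7.04 in FGF-ESC, against 2.96 and 4.27 in EpiSC. Cbr3, a carbonyl reductase, was at 7.11 and 6.66 in FGF-ESC, against 3.77 and 4.11 in EpiSC. Platr10, a long noncoding RNA, was at 8.24 and 8.73 in FGF-ESC, against 5.34 and 5.95 in EpiSC. Phf11d was at 7.1 and 6.62 in FGF-ESC, against 3.58 and 2.77 in EpiSC. Among the 15 largest rises, 2210409E12Rik, Gtsf1l and Nr0b1 were also high in ESC. The first was at 7.7 and 8.22 in FGF-ESC, against 2.21 and 2.85 in EpiSC, with ESC at 9.72 and 9.87 for 2210409E12Rik. Gtsf1l was at 8.32 and 8.84 in FGF-ESC, against 3.37 and 4.9 in EpiSC. Agtr2, Mcpt8 and Fabp4 were below 4.24 in ESC. Agtr2, an angiotensin receptor, was at 8.38 and 7.48 in FGF-ESC, against 3.28 and 3.53 in EpiSC. It was above 4.24 only on the FGF-ESC arrays and so could only be called higher. Mcpt8, a protease gene of the family named for mast cells, was at 9.09 and 8.35 in FGF-ESC, against 4.32 and 4.36 in EpiSC. Fabp4, a fatty acid carrier, was at 6.97 and 7.83 in FGF-ESC, against 3.07 and 2.86 in EpiSC, and was the higher on FGF-ESC replicate 2.

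Epithelial genes went both ways, with 5 of 31 higher (16.1%) and 3 lower (9.68%) and a median of 0.21. Cdh1, E-cadherin, was at 9.14 and 9.62 in FGF-ESC, against 7.62 and 8.66 in EpiSC (1.24 ± 0.31). Cldn4, a tight junction claudin, was at 6.05 and 6.31 in FGF-ESC, against 4.69 and 4.51 in EpiSC. St14, a membrane protease, was at 6.81 and 7.34 in FGF-ESC, against 4.86 and 5.64 in EpiSC. The keratin genes Krt8 and Krt18 fell, while Krt19 (-0.57) and Krt7 (0.20) did not pass. Krt8 was at 6.67 and 5.8 in FGF-ESC, against 7.12 and 7.99 in EpiSC. Krt18 was at 6.59 and 5.8 in FGF-ESC, against 7.17 and 8.02 in EpiSC. The desmosomal protein gene Dsp fell as well, at 3.57 and 3.86 in FGF-ESC, against 4.71 and 5.53 in EpiSC. The 3 falls were 0 without EpiSC replicate 2, and the 5 rises were 8 without FGF-ESC replicate 1 and 3 without FGF-ESC replicate 2. Epcam was at 0.21 and did not pass. In the mesenchymal list 7 of 14 rose (median 1.27), 11 without FGF-ESC replicate 2, among them Snai2, a repressor of E-cadherin. Snai2 was at 6.98 and 6.09 in FGF-ESC, against 3.92 and 3.95 in EpiSC. Cdh2, N-cadherin, was at -1.41 and did not pass (other probe set -1.36). Of the 7, S100a4, Prrx1 and Mmp2 stand in the fibroblast list too. Cdh1 was not called without FGF-ESC replicate 2 or EpiSC replicate 1, nor Krt8 without FGF-ESC replicate 2, while Cdh2 was called lower without FGF-ESC replicate 1 (-2.07).

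Surface markers split into 11 of 27 higher (40.7%) and 6 lower (22.2%). Cd9, a tetraspanin of ESC, was at 8.83 and 8.87 in FGF-ESC, against 6.78 and 7.12 in EpiSC (1.9 ± 0.15), and its other probe set was at background. St6gal1, a sialyltransferase, was at 5.2 and 4.98 in FGF-ESC, against 6.79 and 6.66 in EpiSC. Prom1, CD133, was at 3.52 and 3.49 in FGF-ESC, against 5.23 and 4.89 in EpiSC. Of 27 ephrins, semaphorins and their receptors 3 rose (11.1%) and 6 fell (22.2%), with a median of -0.25. Epha1, an ephrin receptor, was at 5.25 and 5.08 in FGF-ESC, against 7.12 and 7.46 in EpiSC (-2.12 ± 0.16). Sema6a, a transmembrane semaphorin, was at 4.99 and 4.09 in FGF-ESC, against 7.47 and 7.36 in EpiSC (-2.87 ± 0.3). Epha4 was at 5.1 and 5.04 in FGF-ESC, against 6.61 and 6.6 in EpiSC, with ESC at 7.06 and 7.19 and thus above FGF-ESC as well. The rises Nrp1, Nrp2 and Robo1 were 1 without FGF-ESC replicate 1 or EpiSC replicate 2 and 6 without FGF-ESC replicate 2.

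Targets of p53 rose in 8 of 19 cases (42.1%, against 5.26% of all tested genes) and fell in 0 (median 0.89). Cdkn1a, the cell cycle inhibitor p21, was at 10.72 and 10.15 in FGF-ESC, against 9.03 and 9.4 in EpiSC (1.22 ± 0.21). Mdm2, the ligase that limits p53, was at 8.71 and 8.08 in FGF-ESC, against 7.25 and 7.37 in EpiSC. Trp53inp1 was at 8.03 and 7.82 in FGF-ESC, against 6.52 and 6.78 in EpiSC. The count was 4 without FGF-ESC replicate 1 and 3 without EpiSC replicate 1. All 8 were higher on FGF-ESC replicate 1 than on replicate 2, as were 504 of all 715 rises. The part of fibroblast RNA in these values was not tested. Of 12 BCL2 family genes 0 were called, with values from -0.98 to 0.59 and a median of 0.18. Of 22 genes of the integrated stress response 2 rose (9.09%, against 5.26% of all tested genes), Nupr1 and the transcription factor Ddit3. The count was 5 without FGF-ESC replicate 2. Ddit3 was at 8.49 and 8.19 in FGF-ESC, against 6.57 and 7.16 in EpiSC. Cdkn1a and Mdm2 were among those not called without FGF-ESC replicate 1 or EpiSC replicate 1.

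In the cholesterol list 2 of 23 fell, 8.70% against 2.02% of all tested genes, and 0 rose. The median was -0.50, with 20 members below 0. Hmgcs1, which makes the precursor of mevalonate, was at 8.27 and 8.14 in FGF-ESC, against 9.48 and 9.39 in EpiSC (-1.23 ± 0.14). Msmo1, a sterol oxidase, was at 6.98 and 6.75 in FGF-ESC, against 8.08 and 8.21 in EpiSC (-1.28 ± 0.14). Among 22 glycolytic genes Pdk1, a kinase that inhibits pyruvate dehydrogenase, was at 8.63 and 9.16 in FGF-ESC, against 7.53 and 7.61 in EpiSC (1.33 ± 0.17, and 0.90 on its other probe set). The phosphofructokinase gene Pfkp was at 6.4 and 7.4 in FGF-ESC, against 5.1 and 5.4 in EpiSC. The lactate exporter Slc16a3 was at 5.58 and 5.82 in FGF-ESC, against 6.54 and 7.27 in EpiSC. Of 31 genes of oxidative phosphorylation and related enzymes 1 was called, Cpt1a, the carrier of fatty acids into mitochondria, at 7.72 and 7.48 in FGF-ESC, against 6.58 and 6.58 in EpiSC, with a list median of 0.029. Fabp5, a fatty acid carrier with processed copies that its probe sets may share, was at 8.53 and 8.9 in FGF-ESC, against 10.06 and 9.92 in EpiSC. The metallothioneins Mt1 and Mt2, which bind zinc and copper, rose, and neither was called without EpiSC replicate 1. Mt1 was at 9.98 and 9.87 in FGF-ESC, against 7.94 and 8.97 in EpiSC. Mt2 was at 10.57 and 10.48 in FGF-ESC, against 8.83 and 9.53 in EpiSC. Cpt1a was not called without FGF-ESC replicate 1, Pfkp without EpiSC replicate 1 or Slc16a3 without EpiSC replicate 2.

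Of 24 cytosolic ribosomal proteins 0 passed (median -0.0060), and of 11 housekeeping genes 0 (median 0.013). Of 29 Polycomb and chromatin remodelling genes 1 rose, Smarca2 (3.45%). Of 29 cell cycle genes 1 rose and 1 fell (3.45% each), Ccnd2 and Cdkn1c, against 5.26% and 2.02% of all tested genes. The median was -0.34, with 5 members above 0. Rrm2, Pcna and Cdk1 were at -0.34, -0.31 and -0.22 and did not pass. The 7 tested Hox genes lay between -0.30 and 0.69 with 0 called. Over all genes 4460 had an unadjusted p below 0.05, against the 990 called. Smarca2 and Ccnd2 were not called without FGF-ESC replicate 1, nor with either EpiSC array left out.

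Of 14 trophectoderm genes 2 rose (14.3%) and 3 fell (21.4%), against 5.26% and 2.02% of all tested genes, the rises being Bmp4 and Tfap2c, a factor at 4.6 and 5.33 in FGF-ESC, against 3.57 and 3.56 in EpiSC, and the falls Eomes, Krt8 and Krt18. The falls were 1 without EpiSC replicate 2.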

How the data were processed

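RNA of the 8 samples was amplified and hybridised to Affymetrix Mouse Gene 2.1 arrays. The authors deposited log2 intensities per probe set. The submitters' processing notes name Affymetrix Expression Console 1.3.1 as the software. How it summarised, normalized and corrected the probes for background was not given in the sources used here, and these values were used unchanged. Of 41345 probe sets 23521 name 1 gene symbol, 1814 several and 16010 none; only the first kind was used, with the brightest probe set over all arrays for each of the 1082 genes that have several.

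Genes above 4.24, the median of all values, on 2 or more arrays were fitted with limma 3.58.1 in R 4.3.3, with a mean for each of the 4 groups, moderated by eBayes with 4 residual degrees of freedom, and p-values were adjusted by Benjamini and Hochberg over the 13597 genes. Precision is limited by the 2 arrays of a group. The fit was tested on simulated data. The comparison and the 48 gene lists were chosen with earlier results of these data known. The lists share members, with 1096 distinct genes in 1187 entries. Named were the 15 largest rises and falls, the 12 largest rises above 6 on both ESC arrays whose FGF-ESC arrays lay within 0.5, and from each list up to 8 called genes of smallest adjusted p and the 3 brightest others; exceptions are marked. Sequences are from RefSeq (GRCm38.p6). Alternatives were no filter, quantile normalization, the 4 arrays alone, array weights, a replicate block, the mean of a gene's probe sets, and leaving out each array.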

Additional observations from a re-analysis of the deposited data

How the results depend on the processing

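The 715 rises became 710 under quantile normalization, 713 without a filter, 704 with the mean of a gene's probe sets, 730 with array weights and 523 with the 4 arrays alone, and the 275 falls 272, 276, 273, 275 and 252. Leaving out 1 array gave 496 to 974 rises, 248 to 313 falls and 185 to 272 list genes past the threshold, against 229. All shared calls kept their direction, and the percentage of rises among calls ranged from 66.4% to 75.7%. The labels do not say whether the replicate numbers pair the arrays. The differences between replicates 1 and 2 correlated at r = -0.086 between FGF-ESC and EpiSC over genes, which cannot settle it. A replicate block gave 699 rises, 275 falls and 226 list genes. Of the 208 genes looked up for the text, 161 kept their call under every alternative, and of the 174 called ones 34 lost it in at least 1 fit without an array; the cause was not tested. Among them direction changed only for 4 uncalled genes, which ranged with an array left out from -0.034 to 0.46 (Epcam), -0.079 to 0.90 (Id3), -0.20 to 0.92 (Junb, with -0.087 without EpiSC replicate 1) and -0.012 to 0.0849 (Socs2). When a group had 1 array left, that array was assumed to vary like the other groups. Limits are the 2 arrays a group, of unstated origin, the gap between the FGF-ESC arrays, feeder RNA of unmeasured amount, and levels near background for 209 rises and 70 falls.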

Other observations

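Single genes of germ cells and meiosis that stand on none of the gene lists were picked because they rose, so their number says nothing of such genes at large. Rnf17, a Tudor-domain protein of male germ cells, was at 7.14 and 7.83 in FGF-ESC, against 3.71 and 3.48 in EpiSC (3.89 ± 0.21, limma adjusted p = 3.44e-05). Cyct, the testis form of cytochrome c, was at 8.61 and 9.18 in FGF-ESC, against 4.0 and 5.1 in EpiSC, with ESC at 5.37 and 5.23. Morc1, a repressor of transposons in germ cells, was at 7.01 and 7.51 in FGF-ESC, against 3.98 and 4.37 in EpiSC. Hsf2bp, of meiotic recombination, was at 6.28 and 6.9 in FGF-ESC, against 3.75 and 3.62 in EpiSC. Rec114, of the same process, was at 6.62 and 7.45 in FGF-ESC, against 4.07 and 4.38 in EpiSC. On all 5, FGF-ESC replicate 2 was the higher array, unlike the fibroblast markers but as in lists of other kinds, such as epithelial junction genes.

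A run of neighbouring zinc finger genes on chromosome 4 was also chosen after values were seen. Of 12 tested genes 8 rose and 0 fell, with a median of 2.06, and the other 4 lay between -0.45 and 0.97. Rex2 differed by 3.48 ± 0.14, Zfp981 was at 7.98 and 8.61 in FGF-ESC, against 4.82 and 4.94 in EpiSC (3.41 ± 0.21) and Zfp980 at 5.86 and 6.21 in FGF-ESC, against 3.03 and 3.78 in EpiSC (2.63 ± 0.29). These genes are near-identical copies, so probe sets may share their transcripts.

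The remaining lists are read against 5.26% higher and 2.02% lower over all tested genes. Of 12 maternal and oocyte genes 3 rose (25%), Dppa5a, Ooep and Nlrp4f, with Ooep, of the oocyte's cytoplasmic lattice, at 6.69 and 7.2 in FGF-ESC, against 5.36 and 5.22 in EpiSC. Of 14 genes of IGF and its binding proteins 3 rose (21.4%) and 1 fell (7.14%), 5 rising without FGF-ESC replicate 2, and Igfbp7, a secreted binding protein, was at 9.57 and 8.69 in FGF-ESC, against 5.67 and 5.88 in EpiSC. Of 17 amino acid transporters 2 rose (11.8%) and 1 fell (5.88%), with Slc6a8, the creatine transporter, at 7.68 and 6.9 in FGF-ESC, against 5.6 and 5.49 in EpiSC. Of 13 basement membrane and other collagens 3 rose (23.1%), 1 without FGF-ESC replicate 1 or EpiSC replicate 2. Of 22 integrins and laminins 5 rose (22.7%) and 1 fell (4.55%), the rises being 2 without FGF-ESC replicate 1 or EpiSC replicate 1. Of 17 lipid and retinoid carriers 3 rose (17.6%) and 2 fell (11.8%). Of 6 tested genes of cleavage-stage families 0 were called, with values from -0.29 to 0.26.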
